A study of Drosophila melanogaster with 3 samples.

Results

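The nuclear transfer RNA (tRNA) genes of Drosophila melanogaster were examined as a gene family: 290 genes that the Ensembl annotation of the dm6 genome gives the biotype tRNA, of 18277 annotated genes with transposable elements left out. They were followed in chromatin immunoprecipitation sequencing (ChIP-seq) of Pipsqueak (Psq). The samples were 3 biological replicates of whole larvae of the third instar at the wandering stage, sexes pooled, from a transgenic line that carries psq fused at its C terminus to GFP; the tagged protein was pulled down with an antibody to GFP from sonicated chromatin. All samples carried the same transgene and the labels name no treatment, so the data hold 1 group and no second condition, and the comparisons are between tRNA genes and other genes within each replicate. Each value is an average over every tissue of the larva. The submitters' lists give peaks and scores but no read counts, so the depth of each replicate is unknown, and a gene without a peak is a gene without a called peak.

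tRNA genes are transcribed by RNA polymerase III (Pol III) and not by the polymerase that makes messenger RNA. Their promoter lies inside the transcribed stretch, as the A box and the B box, which the factor TFIIIC binds before it places TFIIIB upstream of the start. Each tRNA is named for its amino acid (its isotype) and its anticodon, and many genes of one name have the same sequence and lie in clusters. Psq itself binds GA repeats through a repeated DNA-binding domain that carries its name, has a BTB domain for contacts between proteins, and is known to work with Polycomb and trithorax group proteins.

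The following windows show what lay under 4 Psq summits that fell inside a tRNA gene, as 12 of the 43 final summits near tRNA genes did. Each runs from 100 bases before to 100 bases after a summit of the authors' final peak list, taken from the RefSeq genome sequence of Release 6 (dm6), printed 5′ to 3′ on the strand of the tRNA gene, with the annotated tRNA gene in capitals. The pair of tyrosine genes is shown because both summits fell on the same base of the gene, and the leucine and lysine genes because each is the only annotated copy of its sequence.
Tyr-GTA-1-6: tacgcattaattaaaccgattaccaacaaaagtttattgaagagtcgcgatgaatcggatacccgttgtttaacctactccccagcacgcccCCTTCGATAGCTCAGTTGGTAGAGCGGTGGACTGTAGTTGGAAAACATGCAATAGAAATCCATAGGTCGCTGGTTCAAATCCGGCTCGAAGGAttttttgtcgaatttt
Tyr-GTA-1-7: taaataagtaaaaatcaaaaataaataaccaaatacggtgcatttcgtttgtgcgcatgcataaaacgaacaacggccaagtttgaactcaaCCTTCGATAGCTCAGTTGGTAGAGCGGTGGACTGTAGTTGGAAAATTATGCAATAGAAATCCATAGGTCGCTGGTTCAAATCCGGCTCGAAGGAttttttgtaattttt
Leu-TAA-4-1: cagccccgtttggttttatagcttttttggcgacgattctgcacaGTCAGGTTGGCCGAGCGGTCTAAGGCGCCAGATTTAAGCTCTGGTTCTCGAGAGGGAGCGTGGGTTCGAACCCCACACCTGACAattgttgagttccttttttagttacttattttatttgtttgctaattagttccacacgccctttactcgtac
Lys-TTT-1-1: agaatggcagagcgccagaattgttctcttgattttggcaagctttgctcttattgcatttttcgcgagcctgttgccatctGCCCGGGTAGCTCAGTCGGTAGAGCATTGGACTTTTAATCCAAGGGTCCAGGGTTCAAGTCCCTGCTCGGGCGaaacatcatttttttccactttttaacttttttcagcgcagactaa
The windows are chr3R:8668100-8668300 and chr3R:8668597-8668797 (both minus strand) for the tyrosine genes, chr3R:24265214-24265414 (plus strand) for the leucine gene and chr2L:8290645-8290845 (plus strand) for the lysine gene. In both tyrosine genes the summit lay 8 bp inside the gene, in the leucine gene 55 bp and in the lysine gene 18 bp. The word GAGAG, part of the GA repeat, occurred in the window of the leucine gene, inside the gene, and in none of the other 3. The authors' peak score was 115 at Tyr-GTA-1-6, 127 at Tyr-GTA-1-7, 128 at Leu-TAA-4-1 and 121 at Lys-TTT-1-1. All 4 scored below the median of the final list, 181. Each had a peak within 200 bp among the 10138 highest-scoring peaks of only 2 of the 3 replicates. Replicate 2 listed no summit within 200 bp of that at Leu-TAA-4-1, and replicate 1 none at Lys-TTT-1-1.

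The first question was how many tRNA genes had a Psq summit. A summit of the final list, named optimal by the submitters and holding 10138 peaks, lay within 500 bp of the 5′ end of 51 of 290 tRNA genes, or 17.6%, against 22.7% of all annotated genes at the same distance from any transcription start site (TSS). Among other classes the share was 25.6% of protein-coding genes, 18.8% of small nuclear RNA genes, 14.2% of other noncoding RNA genes and 11.2% of small nucleolar RNA (snoRNA) genes. Within 200 bp the count was 31 tRNA genes (10.7%), against 18.2% of all genes. Within 1000 bp it was 84 tRNA genes (29.0%), above the 26.6% of all genes. The bound genes just inside the limit were tRNA:Asn-GTT-1-2, tRNA:Gly-GCC-2-1 and tRNA:Ser-TGA-2-1, at 486, 483 and 474 bp from the nearest summit. Just outside it were tRNA:Lys-TTT-2-1, tRNA:Val-AAC-2-1 and tRNA:Gly-GCC-1-6, at 506, 513 and 526 bp.

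Each replicate was then read separately, keeping its 10138 highest-scoring peaks so that the lists had the length of the final one. Replicate 1 had a summit within 500 bp of 56 tRNA genes (19.3%), against 23.1% of all genes. Replicate 2 had one at 51 tRNA genes (17.6%), against 23.4% of all genes, and replicate 3 at 57 tRNA genes (19.7%), against 22.3% of all genes. The mean share was 18.9% ± 1.11 of tRNA genes and 23.0% ± 0.584 of all other genes (SD, n = 3 replicates each). tRNA genes were below the other genes in 3 of 3 replicates, with differences of -3.87, -5.90 and -2.70 percentage points. The mean difference was -4.16 ± 1.62 points (SD, n = 3; exact sign-flip permutation test over replicates, two-sided, p = 0.25, the smallest value that 3 replicates allow).

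That order depended on where the lists were ended and on the genes compared. With each replicate's whole permissive list, which runs on into background by the submitters' design, 42.0% ± 1.99 of tRNA genes and 32.8% ± 1.88 of all other genes had a summit (SD, n = 3 replicates each), a difference of 9.17 ± 0.287 points in the opposite direction, seen in 3 of 3 replicates (exact sign-flip permutation test, p = 0.25). A tRNA gene has 1 TSS, and a gene with several has more chances to have a summit near one. Against other genes with 1 TSS, of which 16.5% ± 0.395 had a summit among the highest-scoring peaks, tRNA genes were higher by 2.34 ± 1.35 points (SD, n = 3; exact sign-flip permutation test, p = 0.25). Within 100 bp of the TSS, a distance added after the data were seen, 8.51% of tRNA genes and 9.61% of those other genes with 1 TSS had a summit among the highest-scoring peaks, a difference of -1.10 ± 0.202 points (SD, n = 3 replicates). No direction of the difference in share therefore held over the settings tried.

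**Figure D1:**
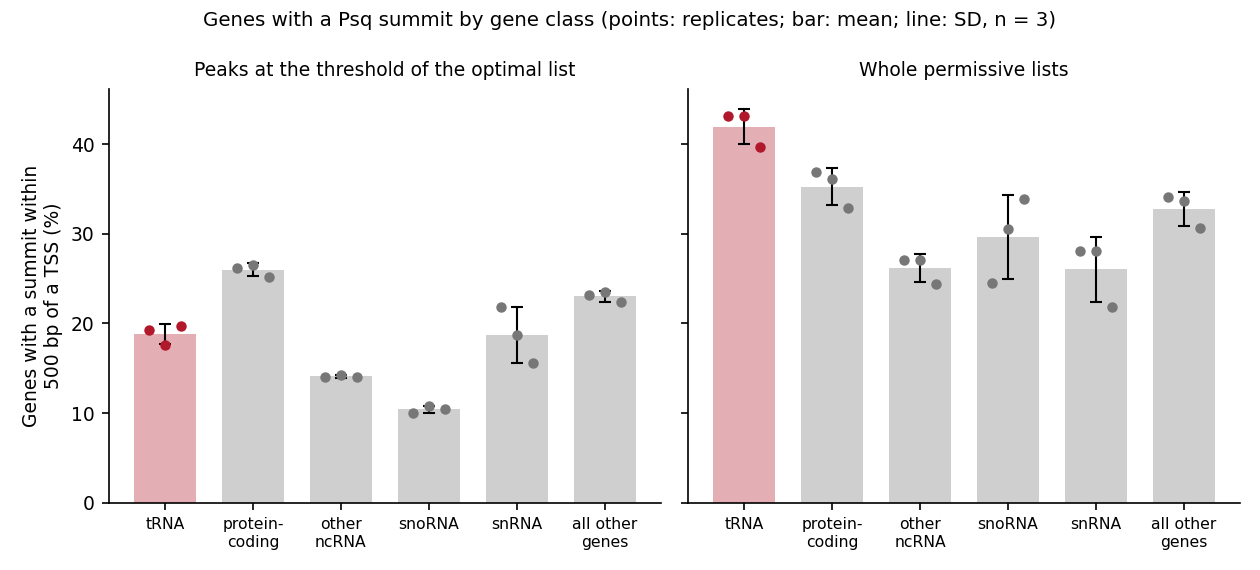
Share of genes (%, vertical axis) with a Psq summit within 500 bp of a TSS in each gene class, with the tRNA genes at the left in red; points are the 3 replicates, bars their mean and lines the SD. At the threshold of the final list (left panel) the tRNA mean was 18.9% against 23.0% of all other genes, and in the whole permissive lists (right panel) it was 42.0% against 32.8%.

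Bound tRNA genes had lower peak scores than other bound genes in every replicate. To compare replicates, each score was divided by the median score of its replicate's permissive list. The highest peak at a bound tRNA gene had a median relative score of 2.20, 2.65 and 1.95 in replicates 1, 2 and 3, against 4.05, 4.17 and 3.92 at all other bound genes. The ranges did not overlap. The means were 2.27 ± 0.358 for tRNA genes, 4.05 ± 0.123 for all other genes and 3.69 ± 0.175 for other genes with 1 TSS (SD, n = 3 replicates each). snoRNA genes, which are also short and noncoding, stood at 4.99 ± 0.860. Few of their summits lay at the snoRNA start: 30 of 269 snoRNA genes had a final summit within 500 bp and 4 within 100 bp.

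The ranks in the final list showed the same. The median rank of the best peak was 7396 for the 51 bound tRNA genes and 3973 for the 4097 other bound genes, where rank 1 is the highest score of 10138. Of the tRNA genes, 9 (17.7%) had their peak among the 5069 highest, the upper part of the list, against 61.3% of the other bound genes. The highest rank of any tRNA gene was 1310 and that of any other gene 28.

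The submitters also called a longer list on all replicates jointly (the joint list, 30000 peaks). In it a summit lay within 500 bp of 129 tRNA genes (44.5%), above the 32.6% of all genes. It held 66 summits within 100 bp of a tRNA 5′ end and 4186 within 100 bp of another TSS. Their median ranks were 11528 and 6667. The list was split by score into 10 equal bins. In bin 1, with the highest scores, 0 summits lay at a tRNA 5′ end, while 31.2% of the summits lay at another TSS. Bins 3 and 4 held 17 and 14 of the tRNA summits, and bin 10, with the lowest scores, held 0. None of the 66 summits was also within 100 bp of another TSS. Read replicate by replicate, 22.7 ± 0.577 summits among the highest-scoring peaks lay within 100 bp of a tRNA 5′ end, and their median relative score was 2.24 ± 0.325, against 3.84 ± 0.165 for summits at other TSSs (SD, n = 3 replicates each).

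**Figure D2:**
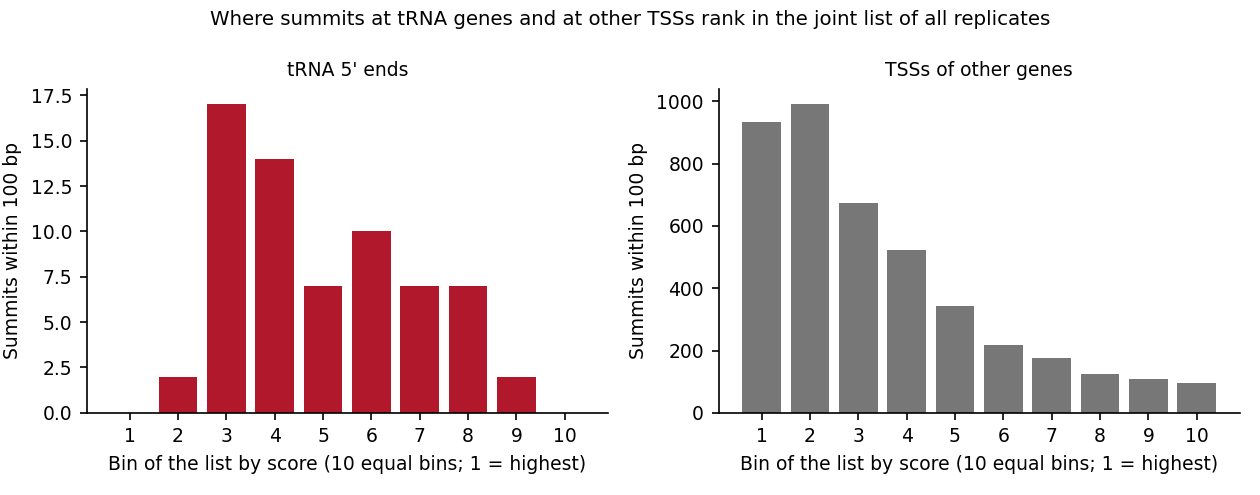
Number of summits (vertical axes, of different scale) within 100 bp of a tRNA 5′ end (left) and of another gene's TSS (right) in 10 equal bins of the joint list, from the highest scores at 1 to the lowest at 10. The 66 tRNA summits are most frequent in bin 3, with 17, and absent from bins 1 and 10, while the summits at other TSSs are most frequent in bins 1 and 2.

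The length of the called peaks differed along with the score. Many peaks of the final list had 1 common length of 264 bp, with the summit at the middle in 3030 of 3042 of them. That length was found in 27 of 43 peaks (62.8%) within 500 bp of a tRNA TSS and in 26.3% of the 4415 peaks near other TSSs only. Below the 5069 highest peaks it was found in 26 of 36 tRNA peaks (72.2%) and in 55.7% of the others.

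The summits were most frequent close to the 5′ end of the tRNA gene. Of the 43 distinct final summits within 500 bp of a tRNA TSS, 26 were within 100 bp of it and 12 lay inside the tRNA gene itself. The median distance of the nearest summit was 87 bp over the 51 bound genes. In the joint list, 16.3% of the listed tRNA genes had their highest summit in the 50 bp just upstream of the 5′ end and 11.6% in the first 50 bp of the gene, against 22.0% and 14.5% of other listed genes. Among the highest-scoring peaks, genes with a summit within 500 bp were sorted by the place of their highest one. It lay within 100 bp for 41.0% ± 3.84 of tRNA genes and 56.1% ± 1.12 of all other genes (SD, n = 3 replicates each). The tRNA genes therefore had relatively more of their highest summits farther out, and several of those lay at the TSS of a neighbour.

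**Figure D3:**
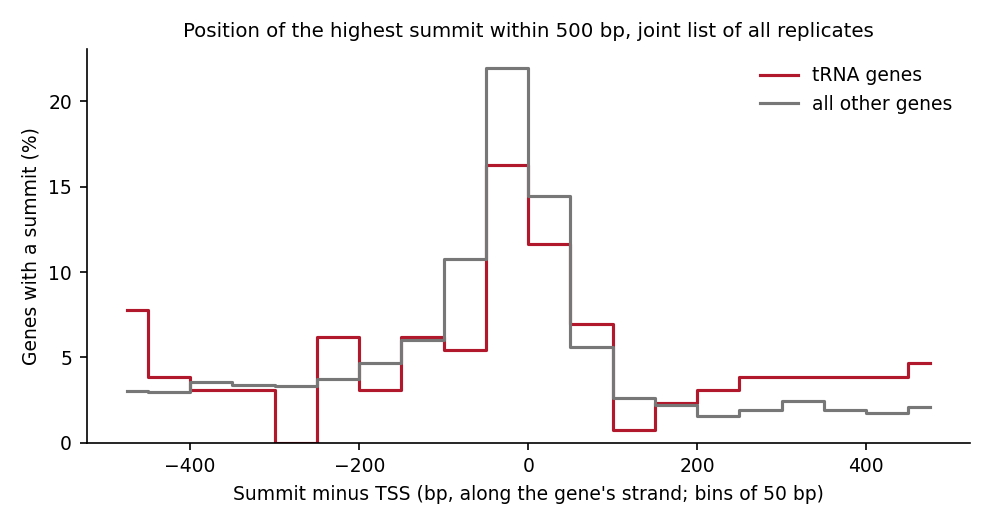
Share of listed genes (%, vertical axis) by the distance from the TSS to the highest summit within 500 bp (horizontal axis, bp along the gene's strand, bins of 50 bp), for tRNA genes in red and all other genes in grey. Both are highest in the bin just upstream of the TSS, at 16.3% of tRNA genes and 22.0% of other genes, and the tRNA line has a second high of 7.75% at the far upstream edge.

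The strongest summits counted for tRNA genes were mostly not at the tRNA. The highest of all, with a score of 439 and rank 1310, lay 434 bp upstream of tRNA:Arg-ACG-1-1 (chr2R:6142165-6142237, plus strand), in the body of EcR, which encodes the ecdysone receptor, and 4428 bp from the nearest other TSS. Its relative score was 9.07, 7.03 and 10.8 in replicates 1, 2 and 3, high in each of them. The second, with a score of 394, lay 277 bp from the 5′ end of tRNA:Phe-GAA-1-2 and 28 bp from the TSS of RpL17, a protein of the large ribosomal subunit. The relative scores at this summit were 6.98, 5.55 and 8.49. The third, with a score of 358, lay 443 bp upstream of tRNA:Tyr-GTA-1-8 and 1 bp from a TSS of CG8036, with relative scores of 8.60, 8.36 and 7.72. These 3 summits were each found in all replicates.

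The fourth summit, with a score of 324, was 51 bp from the TSS of CG30122 and 236 bp upstream of tRNA:Trp-CCA-2-2, and tRNA:Gly-GCC-1-9 was also in reach of it. Its relative scores were 3.84, 6.19 and 6.91. The fifth, with a score of 220, was 46 bp from the TSS of Sema1a, a semaphorin that guides axons, and 340 bp downstream of the start of tRNA:Asp-GTC-1-5. The sixth, with a score of 194, lay 405 bp downstream of the start of tRNA:Arg-TCG-2-3 in the body of pyd, a junction protein gene, and 1248 bp from the TSS of that gene. In all, 8 of the 43 summits were nearer to another gene's TSS than to the tRNA gene, and their median score was 186, against 119 for the 35 that were nearest to a tRNA gene. Among the 35, 3 were in the upper part of the list, and among the 8 it was 4.

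Summits at the tRNA gene itself were of lower score. The highest within 100 bp of a tRNA 5′ end had rank 5033 and a score of 182 and lay 80 bp downstream of the 5′ end of tRNA:His-GTG-1-4 (chr2R:12336418-12336489), just past the gene's end. It had relative scores of 4.23 in replicate 2 and 2.22 in replicate 3, and replicate 1 listed no summit within 200 bp of it. The next lay 58 bp upstream of tRNA:Thr-AGT-1-4 (chr3R:16431940-16432013), with a score of 173 and relative scores of 3.12 in replicate 2 and 2.99 in replicate 3, again without a summit in replicate 1. tRNA:Glu-TTC-1-2, in the body of the chaperone gene mrj, had a summit 8 bp inside the gene with a score of 148 and relative scores of 1.86, 3.88 and 1.10 in replicates 1, 2 and 3. tRNA:Glu-CTC-2-3 had one 30 bp upstream with a score of 142 and relative scores of 2.06, 5.53 and 2.41. Replicate 2 was the high one at both glutamate genes, and the SD between replicates was over 1 in each.

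**Figure D4:**
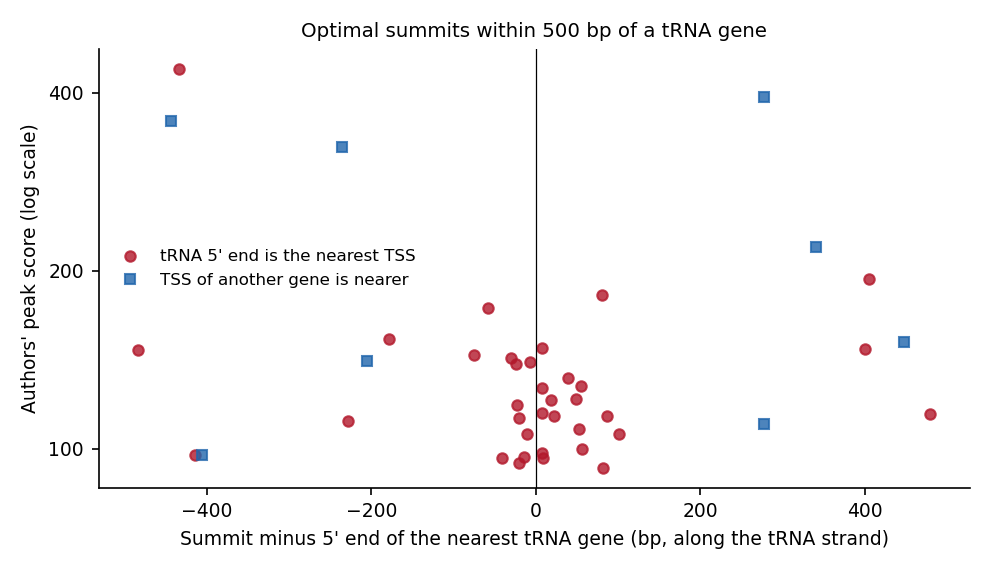
Authors' peak score (vertical axis, log scale) of the 43 final summits against the distance to the 5′ end of the nearest tRNA gene (horizontal axis, bp along the tRNA strand); red circles are summits nearest to a tRNA 5′ end and blue squares those nearer to another gene's TSS. The 26 summits within 100 bp of a tRNA 5′ end all score 182 or less, and the 4 highest scores lie farther than 200 bp from one.

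Further tRNA genes among the 15 highest summits or the best of their isotype scored 154 or less. tRNA:Gln-TTG-2-1 had a summit 179 bp upstream with a score of 154 and relative scores of 4.36, 1.17 and 2.45. tRNA:Ala-TGC-2-1 (score 148), tRNA:Gly-GCC-2-1 (147) and tRNA:Phe-GAA-1-5 (144) had summits 400 bp downstream, 483 bp upstream and 75 bp upstream of their 5′ ends. tRNA:Ile-AAT-1-3 was within reach of a summit with a score of 152 that lay 13 bp from a TSS of ATP8A, a phospholipid flippase gene. tRNA:Ser-TGA-1-1 (140), tRNA:Asn-GTT-1-1 (139), tRNA:Pro-AGG-1-2 (119), tRNA:Val-AAC-2-2 (114) and tRNA:Cys-GCA-1-3 (96.8) each had theirs within 100 bp of the gene's 5′ end. The summit at tRNA:Asn-GTT-1-1 was low in each replicate, at 1.30, 1.43 and 1.41. That at tRNA:Cys-GCA-1-3 was higher, at 2.09, 1.98 and 1.94. Initiator methionine tRNA:iMet-CAT-1-2, which starts translation, was in reach of a summit with a score of 108 that lay nearer to tRNA:Glu-TTC-1-4. Among the unbound tRNA genes listed in all 3 replicates, the highest mean relative score was that of tRNA:Glu-TTC-1-5, at 3.93, 3.60 and 0.748 in replicates 1, 2 and 3. Higher single values, chosen after the data were seen, were 5.94 at tRNA:Gly-GCC-1-13 and tRNA:Trp-CCA-2-6 in replicate 2, with no summit listed in replicates 1 and 3, and 4.56 at tRNA:Ala-TGC-1-1 in replicate 3.

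The replicates agreed less on tRNA genes than on other genes. Among the highest-scoring peaks, 94 tRNA genes had a summit within 500 bp in at least 1 replicate, and 19 of these (20.2%) had one in all 3, 32 in 2 and 43 in 1. For all other genes, 54.0% of the 5424 with a summit in any replicate had one in all 3. In the whole permissive lists the shares were 44.3% of 167 tRNA genes and 58.7% of 7512 other genes. Agreement followed rank, since 8 of the 9 tRNA genes with a peak in the upper part of the final list were supported within 200 bp of the summit by all 3 replicates, against 89.1% of other genes there. In the lower part it was 5 of 42 tRNA genes (11.9%) and 24.6% of other genes. With the final summits required to have a peak within 200 bp among the highest-scoring peaks of both remaining replicates, leaving out replicate 1, 2 or 3 gave 24, 19 and 21 tRNA genes, or 47.1%, 37.3% and 41.2% of the 51. The same condition kept 74.4%, 71.5% and 73.2% of the other bound genes.

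Neighbouring genes could bring a summit within reach of a tRNA gene. Of the 100 tRNA genes with the TSS of another gene within 1000 bp, 21 were bound, and of the 190 with none, 30 were bound. Over replicates these shares were 22.3% ± 1.53 and 17.0% ± 2.43 (SD, n = 3). Of the 134 tRNA genes inside a protein-coding gene, 28 were bound, against 23 of the 156 outside one, and the replicate shares were 22.1% ± 2.62 and 16.0% ± 0.641 (SD, n = 3). Of the 43 summits, 27 had no other TSS within 500 bp, and their median score of 121 compared with 131 for the other 16.

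Isotypes differed in their counts, and for several the replicates differed as much. At least 1 gene was bound in 20 of 22 isotype classes, and the exceptions were elongator methionine (0 of 6 genes) and the single selenocysteine gene. The highest counts were 5 of 19 glutamate genes, 5 of 22 leucine genes, and 4 each of 11 isoleucine, 17 alanine and 26 arginine genes. The lowest nonzero counts were 1 of 17 threonine, 1 of 15 valine, 1 of 12 glutamine and 1 of 8 tryptophan genes. Tryptophan was not low in the replicates, which had 2, 3 and 4 of its 8 genes bound, or 37.5% ± 12.5 (SD, n = 3). Valine had 4, 3 and 1 of 15 genes bound in replicates 1, 2 and 3. Over replicates, isoleucine had 30.3% ± 5.25 and glutamate 26.3% ± 5.26 of its genes bound, against 5.88% ± 5.88 for threonine (SD, n = 3), and the replicate shares of both lay above those of threonine. How many other pairs of isotypes lay apart was not counted. The summits at tRNA:Ile-AAT-1-3 and tRNA:Ile-AAT-1-8 lay 13 and 360 bp from a TSS of ATP8A. Those at tRNA:Ile-TAT-1-1 and tRNA:Ile-TAT-1-2 lay 13993 and 14913 bp from the nearest other TSS. Phenylalanine varied from 1 to 5 of 8 genes between replicates and histidine from 0 to 2 of 5, so their order among isotypes cannot be read.

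In the joint list the isotypes lay farther apart. A summit was listed at 10 of 11 isoleucine genes, 5 of 6 initiator methionine genes, 4 of 5 histidine genes, 16 of 22 leucine genes and 7 of 10 asparagine genes, against 4 of 17 threonine, 5 of 20 serine and 3 of 12 glutamine genes. In the replicates' whole lists isoleucine was at 81.8% ± 0.00, with 9 of 11 genes in each, and asparagine at 70.0% ± 0.00, while threonine was at 11.8% ± 5.88 (SD, n = 3). Genes of 1 isotype often share a cluster and a summit, so they are not separate observations.

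**Figure D5:**
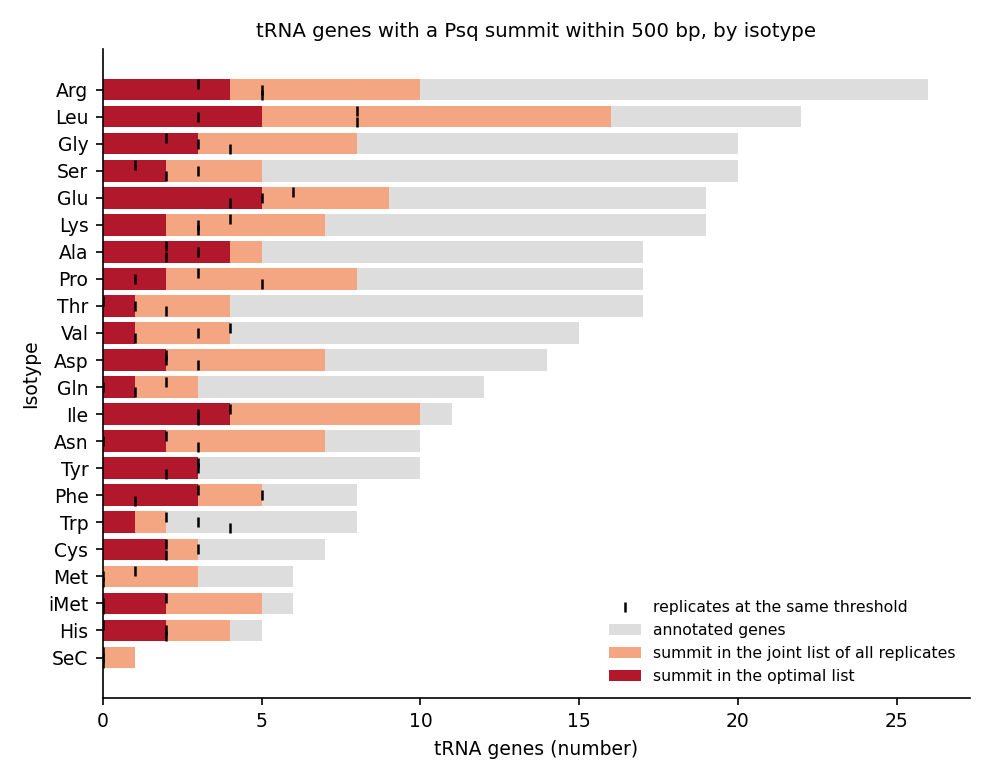
Number of tRNA genes (horizontal axis) of each isotype that were annotated (grey), had a summit within 500 bp in the joint list (orange) or in the final list (red); black ticks are the 3 replicates at the same threshold. Arginine has the most genes, 26 with 4 bound, and isoleucine has 10 of its 11 genes in the joint list.

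Clusters were formed by chaining tRNA genes whose starts lay at most 5 kb apart, which put 214 genes in 68 clusters and left 76 genes single. A final summit was found at 24 clusters and not at 44. Of the clustered genes 43 (20.1%) were bound, and of the single genes 8 (10.5%). Neighbouring genes can be called bound through 1 shared summit, as 3 genes of a cluster of 7 on 2R were. Clustered genes are therefore not separate observations, and how far shared summits raised their share was not tested. The share was not higher in larger clusters: over replicates it was 26.3% ± 0.847 in clusters of 2 to 3 genes, 17.0% ± 3.77 in those of 4 to 6 and 16.3% ± 4.65 in those of 7 or more, against 10.1% ± 2.74 of single genes (SD, n = 3). In the joint list the clusters of 7 or more genes had the highest share, with 28 of 43 genes listed.

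The largest clusters differed from each other. The 11 arginine, asparagine, isoleucine and lysine genes at chr2R:6161535-6171759, in and beside EcR, had 9 genes listed in the joint list, from 5 distinct summits, and 1 bound in the final list. The 11 alanine, proline, threonine and valine genes at chr3R:17617761-17631750 had 2 listed and 0 bound. At chr2R:13430282-13432794, inside ATP8A, all 7 isoleucine and leucine genes were listed and 1 was bound. At chr2R:19725620-19728958 all 7 glutamate and initiator methionine genes were listed and 3 were bound through 1 shared summit, and the replicates had 5, 1 and 0 of them bound. At chrX:14014814-14017284, 3 of 7 arginine and serine genes were listed and 0 bound. The 6 glutamate genes at chr3L:1397695-1401852, inside the phosphatase gene Ptp61F, had 0 listed and 0 bound, and they had the most repeated surroundings of these clusters, with a median of 57.0% of the 31-base words around their starts found elsewhere in the genome. These groups on 3R, X and 3L were the largest without a final summit, together with 6 arginine and asparagine genes at chr3R:8139533-8141042, of which 3 were listed.

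Chromosome arms differed too. On 2R 26 of 98 tRNA genes were bound, against 9 of 79 on 3R, and the replicate shares were 27.9% ± 0.589 on 2R and 10.5% ± 2.64 on 3R (SD, n = 3). The replicate counts were 27, 27 and 28 of 98 genes on 2R and 6, 10 and 9 of 79 genes on 3R. The shares of all genes bound on these arms were not set beside them. Whether the contrast is particular to tRNA genes was not tested. 2L had 5 of 41, 3L 8 of 48 and X 3 of 24 genes bound. The parts of isotype and cluster in these counts were not tested.

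Repeated sequence can limit what is read at tRNA genes, since a read that lies wholly within identical copies has no single place. No source used here says how such reads were treated, and whether they affected these lists was not tested. For each gene, the share of 31-base words within 100 bp of the 5′ end that occur again in the genome was counted. 192 genes had over 10 to 30% repeated words, and 40 of these were bound; 81 had over 30%, and 11 were bound. Of the 17 genes with at most 10%, 0 were bound in the final list, although 1 was bound in replicate 1 and 1 in replicate 3. The replicate shares were 21.4% ± 0.521 for the middle class and 16.0% ± 2.47 for the most repeated one (SD, n = 3). The part of repeated sequence in the low scores was not tested.

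Short words in the sequence within 100 bp of a summit were counted on both strands. GAGAG was present at 13 of 43 final summits near tRNA genes (30.2%) and at 44.4% of the 4415 summits near other TSSs only. The lower part of the final list held 36 of these 43 summits, and there the shares were 30.56% and 37.05%. In the upper part they were 28.57% of 7 summits near tRNA genes and 50.1% near other TSSs. The share at other TSSs thus differed with rank, and the shares that follow were not split by rank. Over the replicates' highest-scoring peaks the shares were 28.9% ± 3.53 and 44.0% ± 0.712 (SD, n = 3), lower near tRNA genes by more than the spread. This difference was smaller in some subsets. At summits near tRNA genes with no other TSS within 1000 bp the share was 43.5%. Among the 19, 15 and 15 tRNA summits supported without replicate 1, 2 or 3 it was 42.1%, 40.0% and 46.7%. At the other TSSs supported in the same way it was 48.5%, 48.9% and 48.5%. Within 50 bp of the summit the share over all final summits was 18.6% near tRNA genes and 27.8% near other TSSs, and within 250 bp it was 51.2% and 62.8%. The longer GAGAGAGA, which contains GAGAG, was present at 1 of 43 and at 8.47%. GTTCGA, the core of the B box, was present at 16 of 43 (37.2%) and at 9.90%. The word is part of many tRNA genes themselves, on the gene's own strand in 162 of the 290. AAAAAAAA was present at 8 of 43 (18.6%) and at 8.83%, and over replicates at 13.7% ± 3.75 and 9.23% ± 0.277 (SD, n = 3). Within 100 bp of the tRNA 5′ end it lay at 25.9% of the 27 genes with a final summit that near. It lay at 25.6% of the 223 with no summit of the joint list there. CACACACA was present at 1 of 43 and at 13.8%, GGTCACAC at 0 of 43 and at 5.60%, and TATCGATA at 2 of 43 and at 6.14%.

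Tied to the tRNA gene rather than to the summit, GAGAG lay within 100 bp of the 5′ end at 97 of 290 tRNA genes (33.4%). It was at 11 of the 27 with a final summit within 100 bp (40.7%), at 11 of 40 with one in the joint list only (27.5%) and at 75 of 223 with none (33.6%). Median GC content within 100 bp was 45.3% at the 26 summits at tRNA 5′ ends and 46.3% at the 2811 at other TSSs. A word is a description of the window and not a binding site.

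Genes that make and use tRNAs were looked up for comparison, each by a summit within 500 bp of any TSS and beside the 22.7% of all genes with one. Of 17 genes for Pol III subunits, 5 were bound (3 among the 5069 highest peaks). The highest were Polr1D, a subunit shared with RNA polymerase I (score 630), Polr2F, a subunit shared by the nuclear RNA polymerases (433), and the Pol III subunit gene Polr3E (214). Polr1D had relative scores of 9.73, 12.6 and 11.9 in replicates 1, 2 and 3, above those of every summit within 100 bp of a tRNA 5′ end. Of 11 initiation and control factors, 4 were bound, led by score by the TFIIIB subunit gene Brf (239), Myc, which raises Pol III transcription (150), and Pbp49, of the complex that recognises small nuclear RNA promoters (136). Pbp49 was bound in replicate 3 only, with relative scores of 1.48, 1.52 and 1.51. The fourth, Bdp1 (132), named after the data were seen, was bound in each replicate, at 4.16, 3.06 and 2.53. Over replicates these shares were 31.4% ± 3.40 for the subunits and 33.3% ± 10.5 for the factors (SD, n = 3).

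Of 20 cytoplasmic aminoacyl-tRNA synthetases, which charge tRNAs with their amino acids, 7 were bound, led by AspRS (222), GluProRS (135) and GlyRS (130), and the replicates had 31.7% ± 7.64 (SD, n = 3). Only 1 of the 7 kept its call when the summits had to be supported by replicates 1 and 2, without replicate 3, and 3 did without replicate 2. Of 17 genes for tRNA processing and modification, 1 was bound, the Elongator subunit gene Elp2 (113), with 4, 1 and 4 in the replicates. Of 106 other RNA genes of Pol III, 2 were bound, snRNA:7SKa (494), whose RNA restrains transcription elongation, and snRNA:U6:96Ac (232), for the U6 RNA of the spliceosome. They had relative scores of 7.74, 12.0 and 7.08 for snRNA:7SKa and 6.38, 2.56 and 4.68 for snRNA:U6:96Ac. Of the 106 genes, 96 were for 5S ribosomal RNA, which form a repeated array, and 0 of these had a final summit. The 2 bound genes were among the 10 others. Of these 10, the replicates had 3, 3 and 4 bound, or 33.3% ± 5.77 (SD, n = 3).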

How the data were processed

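Chromatin from 3 biological replicates was immunoprecipitated with an antibody to GFP, and fragments were 200 to 300, 175 to 275 and 175 to 250 bp long in replicates 1, 2 and 3, per the labels. The peak score is a score the authors deposited for each peak, and the summit offset from the peak's start was also deposited by the authors. Per the file listings that came with the data, the permissive lists hold peaks and background for reproducibility analysis (irreproducible discovery rate, IDR), called per replicate and on all replicates together against 1 control alignment, and the optimal list came from them; it equals the 10138 highest of the joint list of 30000 peaks. The replicate lists hold 28037, 28294 and 24291 peaks. The sources used here name no peak caller, aligner or read filter, the control was not analysed here, and the lists in dm3 coordinates were not used.

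Values were computed in Python 3.11.15 with numpy 2.4.6 and pandas 2.3.3, and figures with matplotlib 3.10.9. TSSs are the 5′ ends of annotated transcripts in the Ensembl annotation, and sequence is from the RefSeq Release 6 assembly. A gene was called bound with a summit within 500 bp of a TSS. Shares were taken over replicates, and the only test was an exact sign-flip permutation test, whose smallest p over 3 replicates is 0.25. Relative scores are scores over the median of the replicate's permissive list. The matching of summits to genes was tested on simulated data. Named genes were the tRNA gene nearest to each of the 15 highest summits, the best bound gene of each isotype, the largest clusters and those without a summit, the unbound gene with the highest mean relative score among those listed in all 3 replicates, and the 3 highest genes of each pathway list. Of the pathway names, 2 were matched by a synonym and 1 was not found. Mitochondrial tRNA genes were left out. The members and lists were chosen with earlier results of these data known. Alternatives covered the distance, the threshold, the replicates, the members, the clusters and the words.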

Additional observations from a re-analysis of the deposited data

How the results depend on the processing

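The lists give no read counts, so no counting error can be stated, and a share of tRNA genes depends on the distance and on where the list ends. Against the 51 tRNA genes and the replicate share of 18.9% reported, a 200 bp distance gave 31 genes and 11.03%, 1000 bp gave 84 and 27.8%, the upper part of the lists gave 9 and 4.25%, and the whole permissive lists gave 129 and 42.0%. A distance of 100 bp, added after the data were seen, gave 8.51%, and a peak interval in place of the summit gave 21.5%. The 190 genes with no other TSS within 1000 bp gave 30 genes and 17.0%, and the 17 genes with few repeated words gave 0 genes, 0 clusters and 3.92%, with no score or word value to give in the final list. The difference from other genes changed sign at 1000 bp (0.989 points), in the permissive lists (9.17) and against genes with 1 TSS (2.34). In the other settings, leaving out each replicate included, it stayed negative. The median relative score, 2.27, was 4.64 in the upper part of the lists, where the cut itself removes low scores, and 1.37 in the permissive lists, and stayed within 1 SD elsewhere.

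Bound genes with no other TSS within 1000 bp, 30 as reported, numbered 17 at 200 bp, 52 at 1000 bp, 2 in the upper part and 86 in the permissive list. The 24 bound clusters became 6 and 39 in those lists and 15 for genes with no other TSS near. The GAGAG share of 30.2% was 35% at 1000 bp, 25.4% in the permissive list, 43.5% for genes with no other TSS near, 18.6% within 50 bp and 51.2% within 250 bp. Without one replicate each, where summits had to be supported by both others, the count was 19 to 24 genes, 11 to 13 with no other TSS near and 10 to 12 clusters. The GAGAG share was then 40.0 to 46.7%, against 48.5 to 48.9% at other TSSs.

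The pathway lists were varied after the data were seen. In the upper part of the list, 3 subunits, 1 factor, 1 synthetase and 0 processing genes were bound. At 200 bp it was 1 other Pol III RNA gene and 0 processing genes, at 1000 bp 4 and 2, and in the permissive list 5 and 4. Without one replicate each, subunits ranged from 3 to 4, synthetases from 1 to 5 and processing genes from 0 to 1. No paired analysis was possible because the study has a single group of samples, so no groups share replicate numbers. The difference between tRNA genes and other genes was taken within each replicate.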
